A study of Rattus norvegicus with 4 samples.

Results

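The 10 keratin genes Krt1, Krt5, Krt8, Krt13, Krt14, Krt15, Krt18, Krt19, Krt33a and Krt73 were described in PC12 cells that carried a MAX expression plasmid, against PC12 cells that carried an empty vector. They are 10 of the 27 genes with a Krt symbol and a probe named through its RefSeq accession, and were selected on the measured log2 signals of these arrays, MAX vector against empty vector. Their fold changes in this comparison are therefore a description, and the count of them that passed in limma serves as no test of them. All 10 were among the 25356 genes tested across the arrays, and 9 were well above background on each of the 4 arrays. Most of these entries had no gene symbol, and each array identifier was then counted as a gene. Whether several identifiers belong to the same gene was not tested, so ranks and shares of all genes are over such entries.

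PC12 is a rat line from a pheochromocytoma, a tumour of the adrenal chromaffin cells, and is known to lack a functional MAX, the protein through which MYC proteins bind DNA. Cells of the MAX vector group were nucleofected with a plasmid that codes for MAX, those of the empty vector group with the plasmid's empty counterpart, and both were kept under a selection drug that the labels call E418. Each group was 1 transfected line, taken at passage 8 and again at passage 13 and measured on 2 Agilent arrays of a single colour. The spread between arrays of a group is thus that between passages of a line. In the MAX vector group it also holds that between slides and scans, which cannot be told apart from passage. Independent transfections were not compared.

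Keratins are the intermediate filament proteins of epithelial cells. A type I (acidic) and a type II (basic) chain form a dimer, the dimers assemble into filaments, and the filaments anchor at desmosomes and hemidesmosomes. Each epithelium is known for its own pairs: Krt8 and Krt18 in simple epithelia, Krt5 and Krt14 in basal cells of stratified epithelia, Krt4 and Krt13 above them in the oral cavity and oesophagus, and Krt1 with Krt10 in the upper epidermis. Neural and neuroendocrine cells are known instead for neurofilaments and peripherin, and chromaffin cells for few keratins.

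On each array 64.5% to 71.6% of probes had a signal well above background, 0 spots were saturated, and the number of arrays limits the precision. Values below are log2 signals relative to the array's 75th percentile, so that 0 is the 75th percentile and a step of 1 is a doubling. Replicates differed over all genes by a median of 0.15 in the MAX vector group and 0.12 in the empty vector group. MAX vector replicate 1 was hybridised on slide 2 and the other 3 arrays on slide 1. Levels of different probes cannot be set against each other. The probe for Max was well above background on none of the 4 arrays, at -7.61 and -7.94 with the MAX vector and -8.36 and -8.07 with the empty vector. It therefore did not check the labels, and its position relative to the plasmid's insert was not analysed here.

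Krt15, Krt13 and Krt19, all of type I, were the keratins with the largest differences, each about 9 to 13 times higher in cells with the MAX vector. Krt15, a keratin of basal epithelial cells and of the hair follicle bulge, had log2 signals of 2.60 and 2.68 on the MAX vector arrays, against -1.42 and -0.66 on the empty vector arrays. Both MAX vector arrays lay close together, and the gap of 3.27 to the nearer empty vector array was larger than the gap of 0.75 between the empty vector arrays. The fold was 12.9 (log2 fold change 3.68 ± 0.28, SE from limma, n = 2 arrays per group, as for every SE below). Krt13, the type I keratin of internal stratified epithelia, had -1.05 and -0.48 with the MAX vector and -4.66 and -4.09 with the empty vector. Its replicates lay 0.57 apart in the MAX vector group and 0.56 apart in the empty vector group, and the groups did not overlap. Its fold was 12.2 (3.61 ± 0.30), and with the normexp background correction the log2 fold change was 2.31. Krt19, a type I keratin of ducts and simple epithelia, had 1.79 and 1.64 on the MAX vector arrays and -1.68 and -1.26 on the empty vector arrays. Its fold was 9.11 (3.19 ± 0.18), and its groups did not overlap either. Among the 25356 genes, ordered from the highest log2 fold change, Krt15 stood at place 35, Krt13 at 38 and Krt19 at 51. Within slide 1, where MAX vector replicate 2 is set against both empty vector arrays, the log2 fold changes were 3.72 for Krt15, 3.89 for Krt13 and 3.11 for Krt19.

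**Figure D1:**
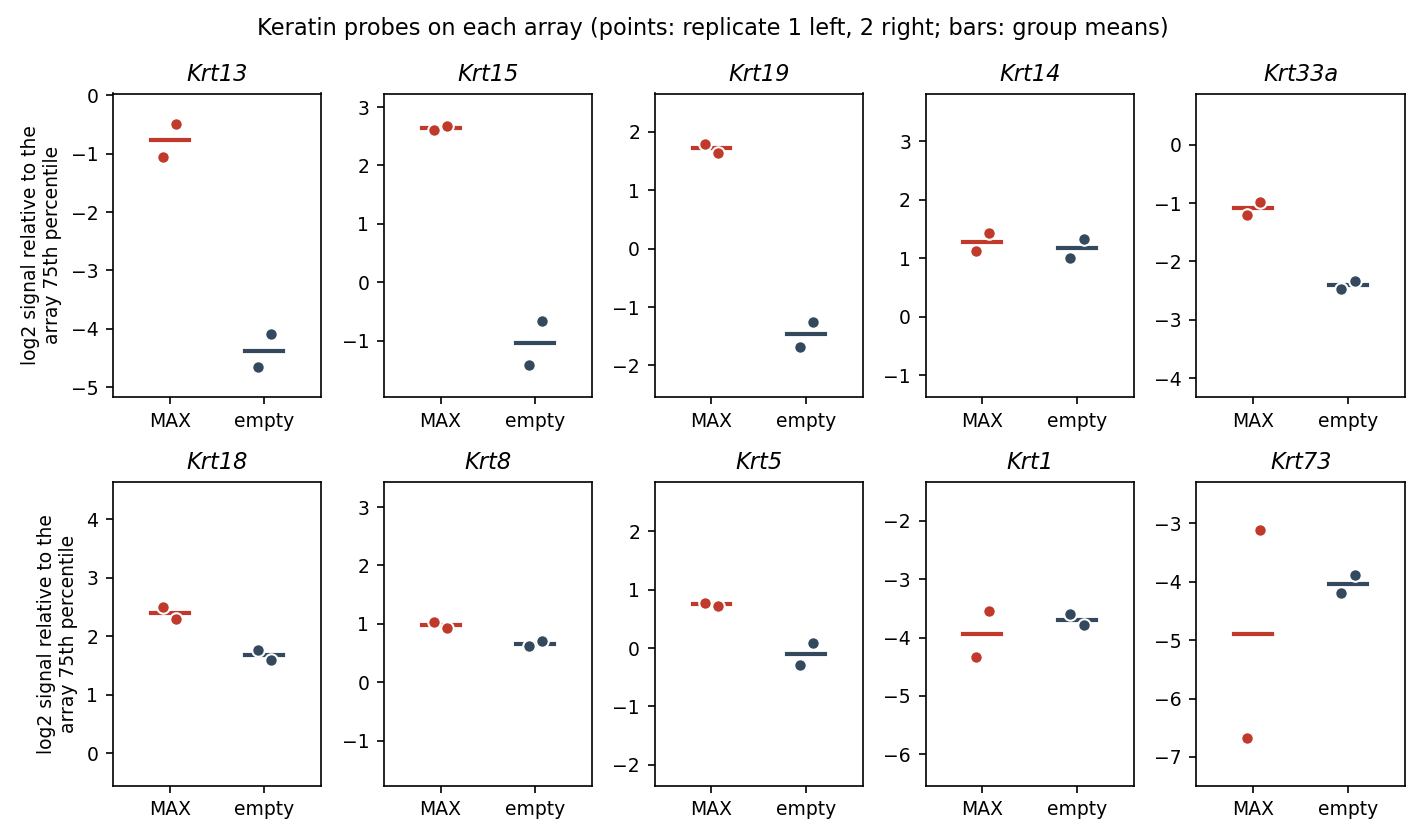
Log2 signal relative to the array's 75th percentile (y axis) of the probe used for each keratin, with the 2 MAX vector arrays left of the 2 empty vector arrays; points are arrays, bars are group means, and every panel spans the same number of log2 units around its own centre. For Krt13, Krt15 and Krt19 both MAX vector arrays sit about 3 units or more above both empty vector arrays, while the groups overlap for Krt14, Krt1 and Krt73.

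Krt33a and Krt14 are type I keratins as well. Krt33a, which encodes a keratin of the hair cortex, had -1.20 and -0.98 with the MAX vector and -2.47 and -2.34 with the empty vector. Its difference of 1.32 ± 0.12 (2.49-fold) exceeded the gaps of 0.22 and 0.13 between its MAX vector and empty vector replicates. A closely related neighbour, Krt33b, had no probe named here, and whether the Krt33a probe also reads it was not tested. Krt14, the basal partner of Krt5, had 1.13 and 1.43 with the MAX vector and 1.01 and 1.33 with the empty vector. These ranges overlapped, and the difference of 0.11 ± 0.18 lay within the gaps of 0.31 and 0.32 between replicates. The basal keratins Krt15 and Krt14 thus had differences of 3.68 and 0.11 in the same RNA.

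The pair of simple epithelia, Krt8 and Krt18, was above the 75th percentile on every array by the probes used. Krt18 (type I) had 2.49 and 2.30 with the MAX vector and 1.77 and 1.59 with the empty vector, a log2 fold change of 0.72 ± 0.13 (1.65-fold). Its second probe, at 0.22 and 0.04 against -0.35 and -0.48, gave 0.55. Krt8 (type II) had 1.04 and 0.93 with the MAX vector and 0.62 and 0.70 with the empty vector, a log2 fold change of 0.32 ± 0.10 (1.25-fold). Neither gene's groups overlapped, yet both differences were far below those of Krt15, Krt13 and Krt19. Krt5, the type II keratin of basal cells, had 0.78 and 0.72 with the MAX vector and -0.29 and 0.09 with the empty vector. Its log2 fold change was 0.85 ± 0.16 (1.80-fold), where that of its known partner Krt14 was 0.11. On slide 1 alone the differences were 0.82 for Krt5, 0.62 for Krt18, 0.27 for Krt8, 0.26 for Krt14 and 1.43 for Krt33a.

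The 250 bases before the starts of Krt5, Krt8 and Krt18 are shown because these are the keratins detected on every array for which RefSeq's promoter table (build GRCr8) held an entry. It held 4 of the 10, with Krt73 the other. The windows are chr7:134730570-134730819 (minus strand) for Krt5, chr7:135010340-135010589 (minus strand) for Krt8 and chr7:135035918-135036167 (plus strand) for Krt18, written 5′ to 3′ along the gene. Capitals mark the letters GGGCGG, the core of SP1 sites, and TATAAA, the TATA box, on either strand.
Krt5: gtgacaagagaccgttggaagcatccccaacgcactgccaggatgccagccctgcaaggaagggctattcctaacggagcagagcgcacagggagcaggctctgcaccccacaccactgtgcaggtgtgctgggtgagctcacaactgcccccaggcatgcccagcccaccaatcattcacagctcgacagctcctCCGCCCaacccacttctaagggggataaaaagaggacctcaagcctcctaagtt
Krt8: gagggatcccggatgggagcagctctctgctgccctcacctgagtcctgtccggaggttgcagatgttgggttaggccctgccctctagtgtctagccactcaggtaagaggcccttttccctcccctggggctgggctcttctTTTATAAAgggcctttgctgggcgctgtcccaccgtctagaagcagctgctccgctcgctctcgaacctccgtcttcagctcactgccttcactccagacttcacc
Krt18: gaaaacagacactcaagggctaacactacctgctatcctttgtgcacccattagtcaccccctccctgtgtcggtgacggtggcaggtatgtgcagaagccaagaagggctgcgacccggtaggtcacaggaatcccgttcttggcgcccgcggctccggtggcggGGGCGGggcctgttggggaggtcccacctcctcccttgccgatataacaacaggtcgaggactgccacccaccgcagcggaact
CACGTG, the E-box letters that dimers of MAX are known to bind, was searched on both strands as well and had 0 matches in these windows and in that of Krt73. It matched 5.59% of the 33469 windows of this length in the table. GGGCGG had 1 match in Krt5 and 1 in Krt18, against 30.5% of all windows with a match. TATAAA had 2 overlapping matches in Krt8 and 1 in Krt73, against 12.9% of all windows. A match or its absence describes only the letters of these windows.

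The remaining type II keratins, Krt1 and Krt73, were dim and did not separate the groups. Krt1, the keratin of the upper epidermis, had -4.33 and -3.55 with the MAX vector and -3.60 and -3.78 with the empty vector, a difference of -0.24 ± 0.30. On slide 1 alone it had 0.15. Krt73, a keratin of the inner root sheath of hair, had -6.67 and -3.12 with the MAX vector and -4.20 and -3.88 with the empty vector. With the MAX vector it was well above background on replicate 2 alone, so that its difference of -0.85 ± 1.27 rests on a signal near background. On slide 1 alone the difference was 0.92, and with normexp it was 0.04.

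**Figure D2:**
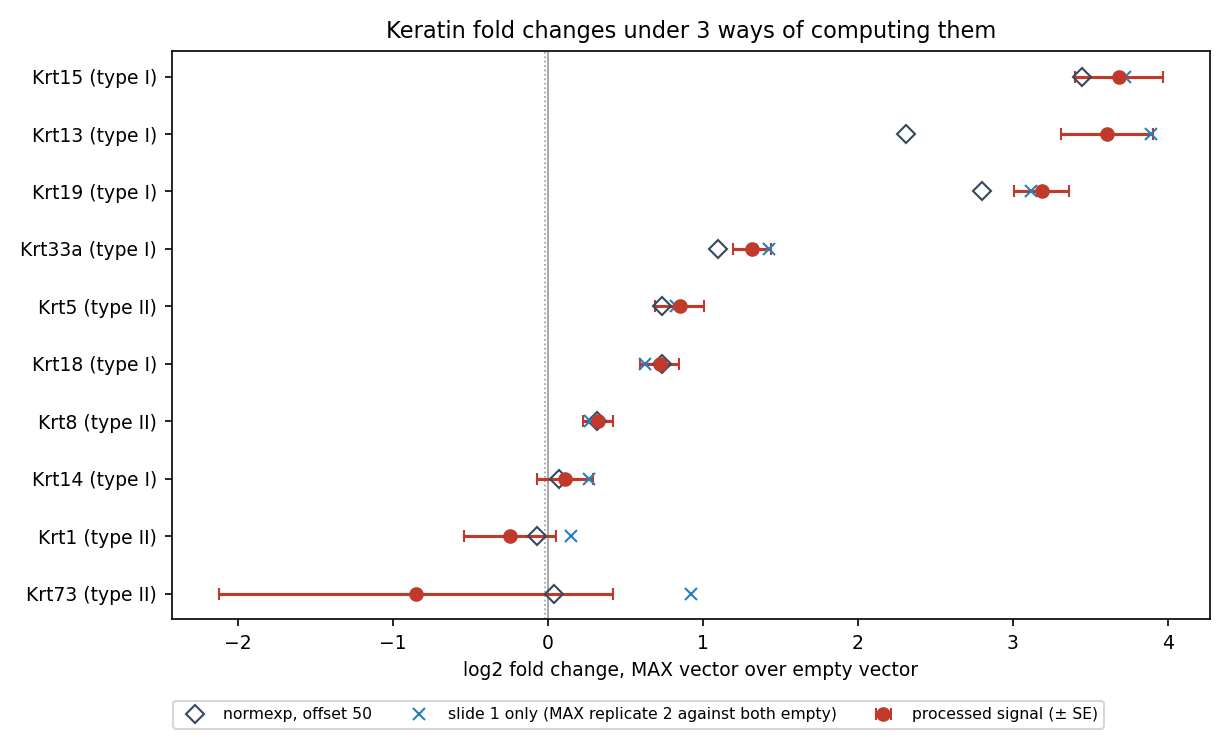
Log2 fold change of each keratin, MAX vector over empty vector (x axis), by the processed signal with its SE (filled circles), with normexp (diamonds) and within slide 1 (crosses); the dotted line is the median of all genes tested. Krt15, Krt13 and Krt19 lie between 2.31 and 3.89 by all 3 ways, whereas Krt1 and Krt73 lie on both sides of 0.

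Of the 10 keratins, 8 had a positive and 2 a negative log2 fold change, where 46.5% of all genes were positive, with a median of 0.79 against -0.02 for all genes tested. For 7 of the 10 both MAX vector arrays lay above both empty vector arrays, as they did for 24.2% of all genes, and for 0 did both lie below, against 26% of all genes. Groups that did not overlap in either direction made up 50.2% of all genes. A difference of at least 2-fold upward was seen for 4 of the 10 (Krt13, Krt15, Krt19 and Krt33a), against 1.64% of all genes. In limma 3 of the 10, Krt13, Krt15 and Krt19, had an adjusted p under 0.05, all higher, against 0.84% of all genes in either direction and 0.576% higher. Since the genes were listed with this contrast known, nothing is read from these counts. With normexp 6 of the 10 passed, and calls over all genes were 430 higher and 367 lower, where the processed signal gave 146 higher and 67 lower. The calls of Krt13, Krt15 and Krt19 were lost with any 1 of the 4 arrays left out, which leaves a group with 1 array. Their log2 fold changes were then 3.32 to 3.89, 3.31 to 4.06 and 2.98 to 3.39. The 6 type I members had log2 fold changes of 0.11 to 3.68, and the 4 type II members had -0.85 to 0.85.

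Profiles were compared by the root mean square difference of log2 signals over the 4 arrays, each gene centred on its own mean, so that a small value means a like pattern. Krt13 and Krt15 were the most alike pair of members, with 0.19 on this scale, and Krt15 and Krt19 had 0.29. Outside the family, of 5780 named genes well above background on every array, the 5 most like Krt19 were Npy, which encodes neuropeptide Y, at 0.085, G0s2, a regulator of fat breakdown, at 0.13, Pcp4, which encodes a calmodulin-binding protein, at 0.13, Fhit, which encodes a dinucleoside hydrolase, at 0.19 and Sftpc, which encodes a surfactant protein, at 0.20. Npy had -0.96 and -1.20 with the MAX vector and -4.35 and -4.16 with the empty vector, so its 2 groups stood about as far apart as those of Krt19. This holds for the processed signal, since by normexp Npy had a log2 fold change of 1.91 and Fhit one of 1.02, against 2.80 for Krt19.

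Krt13, Krt15 and Krt19 are direct neighbours, in that order, in the type I keratin cluster of chromosome 10 in the RefSeq annotation of GRCr8. Flanking genes were named after their values were seen. The probes for the neighbours on either side, Krt36 and Krt9, were well above background on none of the 4 arrays, with log2 signals between -6.97 and -6.20. Krt14 follows Krt9 and had a difference of 0.11. At the far end of the interval shown, Hap1, which encodes a huntingtin-associated protein, and Jup, which encodes plakoglobin, had 0.59 ± 0.11 and 0.56 ± 0.09, while Gast, the gastrin gene, had -0.21 ± 0.14. None of these 3 passed in limma (adjusted p = 0.138, 0.121 and 0.524). Krt33a lies at the other end of the interval, with 6 keratin genes between it and Krt13, of which Krt34 and Krt36 had a named probe, both well above background on no array. On chromosome 7, Krt8 and Krt18 are direct neighbours.

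**Figure D3:**
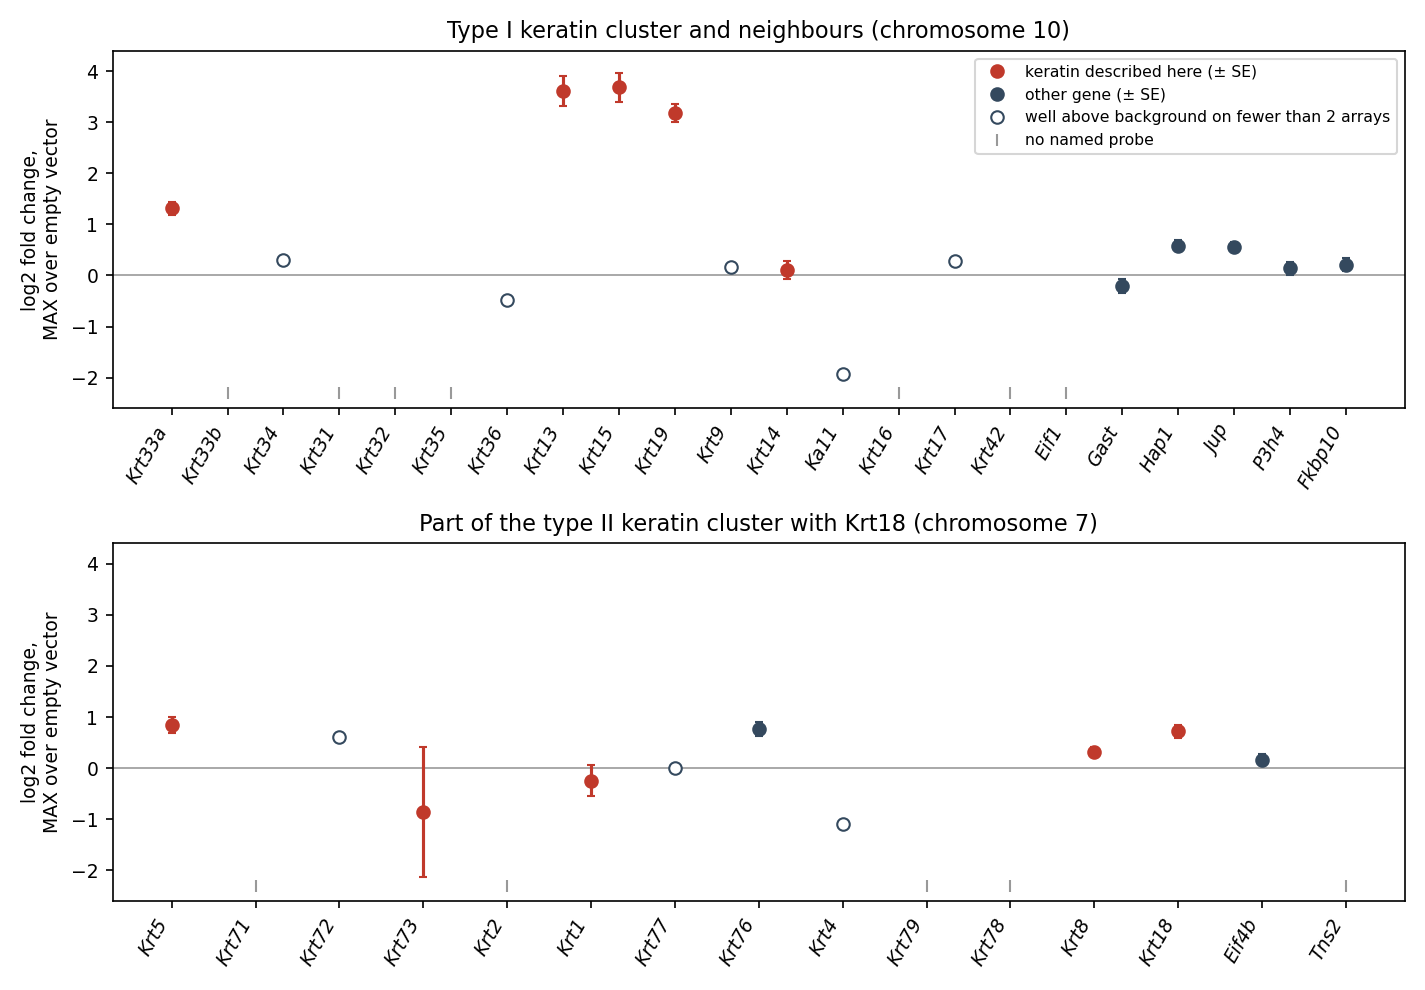
Log2 fold change, MAX vector over empty vector (y axis), of genes in their order along part of chromosome 10 (upper) and chromosome 7 (lower); filled points have SE bars, hollow points were well above background on fewer than 2 arrays, and ticks at the foot mark genes without a named probe. Krt13, Krt15 and Krt19 stand side by side between 3.19 and 3.68, next to Krt36 and Krt9 without a signal above background and to Krt14 at 0.11.

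The other 17 Krt genes with a named probe gave little signal. Ka11, which lies between Krt14 and Krt16 and is not counted among them, was well above background on 1 empty vector array and was not tested. For 15 the probe was well above background on none of the 4 arrays and for 1, Krt39, on a single empty vector array, so 1 of the 17, Krt76, was tested. Krt76, a type II keratin of the oral mucosa, had -2.05 and -2.34 with the MAX vector and -2.88 and -3.04 with the empty vector, and did not pass (0.76 ± 0.14, adjusted p = 0.139 in limma). Krt4, the known type II partner of Krt13, had -7.89 and -8.29 with the MAX vector and -7.62 and -6.37 with the empty vector, all not well above background. The same held for Krt17, which is known to pair with Krt5, and for Krt9, which is known to pair with Krt1. Krt10 had no probe named here.

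Among transcription factors of epithelia and hair follicles, Tp63, which encodes p63, the factor of basal epithelial cells known to act on keratin genes, rose. It had 2.34 and 2.44 with the MAX vector and 1.23 and 1.26 with the empty vector, a 2.22-fold difference (1.15 ± 0.09, adjusted p = 0.0401 in limma). Its second probe gave 1.10. The other 4 of the 5 tested genes of this list did not pass, and the list's median was 0.11 against -0.02 for all genes. This list, like the others, was chosen with earlier results of these data known. Klf4, a factor of differentiating epithelium, had 2.76 and 2.59 with the MAX vector and 3.42 and 3.26 with the empty vector (-0.67 ± 0.12, adjusted p = 0.131). Lef1, a factor of the hair follicle's Wnt response, had -0.21 ± 0.10 (adjusted p = 0.399). Foxa2, a factor of endodermal epithelia, was well above background on 3 of the 4 arrays and had 0.91 ± 0.10 (adjusted p = 0.0606). With normexp Foxa2 had 0.24, so the size of its difference depended on the background correction. The call for Tp63 held with normexp (adjusted p = 0.000374 in limma) and with quantile or median scaling. It held as well among probes well above background on all 4 arrays, and in the authors' value table, which holds the same differences. The call was lost with no filter on dim probes (0.16), the mean of all probes (0.0532) and the replicate block (0.13). It was also lost with any 1 array left out. The slide as a block gave the same fit as leaving out MAX vector replicate 1. On slide 1 alone the log2 fold change was 1.20.

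Epithelial adhesion and junction genes held 0 calls among the 14 tested in limma, with 8 at an unadjusted p under 0.05, while 12 of the 14 were positive and the median was 0.32. Over all genes 16.1% had an unadjusted p under 0.05 and 46.5% were positive. Cdh1, which encodes E-cadherin, had -1.60 and -1.43 with the MAX vector and -3.08 and -2.55 with the empty vector (1.30 ± 0.21, adjusted p = 0.117). Epcam, which encodes an epithelial adhesion molecule, had 1.94 and 1.96 with the MAX vector and 0.88 and 1.08 with the empty vector (0.97 ± 0.11, adjusted p = 0.0674). Crb3, an apical polarity gene, had 1.27 ± 0.36 (adjusted p = 0.238), and 0.24 with normexp. Of the desmosome and keratin linker genes 4 of 26 were tested and 0 passed in limma, with 2 at an unadjusted p under 0.05 and a median of 0.26. Itgb4, which encodes the integrin subunit that anchors keratins in hemidesmosomes, had 3.53 and 3.62 with the MAX vector and 2.60 and 2.79 with the empty vector (0.88 ± 0.11, adjusted p = 0.0802). Jup had 3.57 and 3.55 with the MAX vector and 2.93 and 3.06 with the empty vector (0.56 ± 0.09), and Cd151, a tetraspanin gene, had -0.04 ± 0.17.

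Genes of the cornified envelope and of stratified differentiation lay on both sides of 0, with 4 of the 10 tested positive, 6 negative, a median of -0.14 and 0 calls in limma (5 at an unadjusted p under 0.05, against 16.1% of all genes). S100a8, a calcium-binding protein gene of stressed epithelium, had 1.19 ± 0.14 (adjusted p = 0.0694), and Il1rn, which encodes the interleukin-1 receptor antagonist, had 0.91 ± 0.12 (0.081). Aqp3, a water and glycerol channel gene, had -1.09 ± 0.39 (0.31). Calml3, a calmodulin-like gene of epithelia, was well above background on 3 of the 4 arrays and had -1.53 ± 0.94 (0.503), and -0.19 with normexp. Ivl, which encodes the envelope protein involucrin, was well above background on none of the 4 arrays. The 10 tested genes for keratin chaperones, binding proteins and the caspases that cleave keratins held 0 calls in limma, with 1 at an unadjusted p under 0.05 and a median of 0.02. Hspb1, a small heat shock protein gene, had 0.41 ± 0.11 (adjusted p = 0.227), Casp6 had 0.20 ± 0.11 and Stub1, a ubiquitin ligase gene, had 0.12 ± 0.12.

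Of the non-keratin intermediate filament genes, Nefm, the middle neurofilament subunit, fell. It had -0.48 and -0.42 with the MAX vector and 2.04 and 1.86 with the empty vector (-2.40 ± 0.11, adjusted p = 0.0197 in limma). With normexp the adjusted p was 3.02e-07 in limma, and with no filter on dim probes it was 0.108. The call was lost without MAX vector replicate 1 and without either empty vector replicate, and on slide 1 alone the log2 fold change was -2.37. The other 9 of the 10 tested did not pass, with 8 of the 10 negative and a median of -0.26 against -0.02 for all genes. Nefl, the light subunit, had -5.42 and -4.82 with the MAX vector and -2.96 and -3.16 with the empty vector (-2.06 ± 0.24, adjusted p = 0.0691, and -0.84 with normexp). Prph, which encodes peripherin, had 2.27 and 2.35 with the MAX vector and 3.23 and 3.24 with the empty vector (-0.92 ± 0.09, adjusted p = 0.0521). Vim, which encodes vimentin of mesenchymal and many cultured cells, had 6.80 and 6.70 with the MAX vector and 6.68 and 6.71 with the empty vector, a difference of 0.06 ± 0.09. The 5 tested transcription factor genes of the mesenchymal transition held 0 calls in limma, with 1 at an unadjusted p under 0.05 and a median of -0.01. Snai1, which encodes the repressor Snail, had -0.40 ± 0.11 (adjusted p = 0.224), Zeb2 had -0.25 ± 0.15 and Twist1 had 0.07 ± 0.09.

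**Figure D4:**
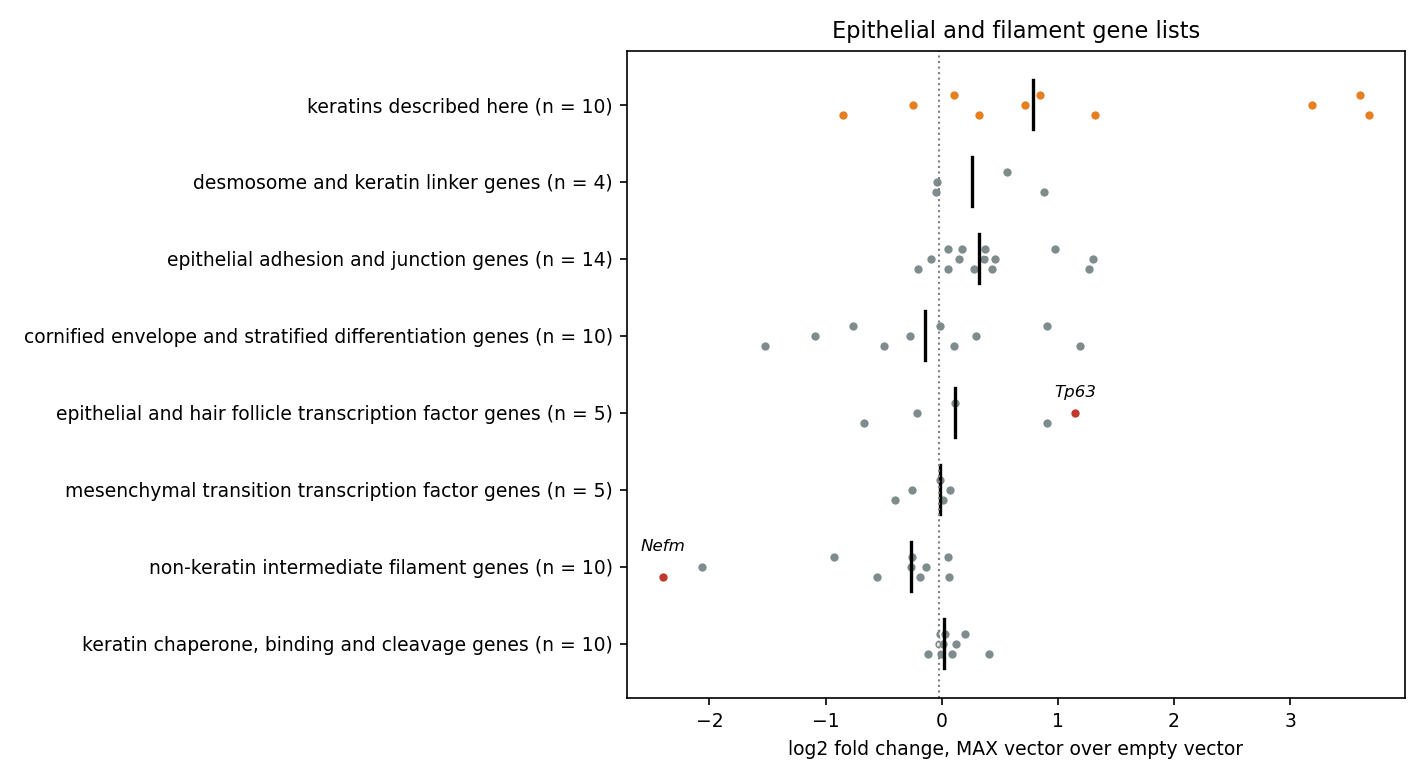
Log2 fold change, MAX vector over empty vector (x axis), of the keratins and of each tested gene of 7 lists; points are genes, spread vertically only for legibility, black bars are list medians, the dotted line is the median of all genes, and red points passed in limma. Among the lists Tp63 passed to the right at 1.15 and Nefm to the left at -2.40, while the adhesion and junction genes lie mostly right of the dotted line.

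Markers of the cell types that the cultures could hold were set beside the keratins. Of 7 epithelial markers with a named probe, 6 were well above background on all 4 arrays and 1, Elf3, on none. All 7 come from lists described above, the 6 from the adhesion and junction list and Elf3 from that of transcription factors. They are therefore no measure separate from those lists. Their summed signal, in units of the array's 75th percentile, was 11.3 to 11.5 with the MAX vector and 7.63 to 8.49 with the empty vector. Such a sum weighs the brightest probes most, so it is compared between arrays only and does not measure the amount of a cell type. Without Cldn7, the brightest of these, it was 6.55 to 6.84 with the MAX vector and 4.15 to 4.66 with the empty vector. In bulk RNA a larger number of cells with keratins and more keratin RNA per cell cannot be told apart, and the part of other cell types in the keratin differences was not tested. Of 11 chromaffin markers, 8 were well above background on all 4 arrays, and the sum was 10.6 to 10.8 with the MAX vector and 19.2 to 19.3 with the empty vector. Ddc made up most of it, and without Ddc the sum was 2.961 to 3.001 with the MAX vector and 2.90 to 2.92 with the empty vector. This rest still holds Th, at 0.17 and 0.08 with the MAX vector and -1.94 and -2.10 with the empty vector. It therefore does not show that the remaining markers were unchanged. Of the 11 log2 fold changes 9 were negative, with a median of -0.59. Th, which encodes tyrosine hydroxylase, rose (2.15 ± 0.11, adjusted p = 0.0203 in limma). Ddc, which encodes the next enzyme of dopamine synthesis, fell (-1.08 ± 0.08, adjusted p = 0.0391 in limma). With normexp they had 1.75 and -0.97. Both calls were lost with no filter on dim probes and with the replicate block, where 0 of all genes passed. The other 9 did not pass in limma. Dbh, the noradrenaline-making enzyme, and Slc18a1, a vesicular monoamine transporter, were well above background on both empty vector arrays and, with the MAX vector, on 1 array. Of 6 fibroblast markers 5 were well above background on all 4 arrays, among them Col3a1 at 7.07 and 7.16 with the MAX vector and 6.98 and 7.12 with the empty vector, and the sum was 140 to 150 with the MAX vector and 134 to 149 with the empty vector. Nearly all of that was Col3a1, and without it the sum was 5.36 to 6.24 with the MAX vector and 8.09 to 9.96 with the empty vector. Lum had -1.19 ± 0.27, Pdgfrb had -0.58 ± 0.15 and Dcn had 0.75 ± 0.13, none of which passed in limma (adjusted p = 0.183, 0.219 and 0.126). With normexp they had -1.07, -0.47 and 0.23. The sums were 0.219 to 0.345 with the MAX vector and 0.203 to 0.204 with the empty vector for 5 adrenal cortex markers, and 0.449 to 0.568 with the MAX vector and 0.501 to 0.571 with the empty vector for 5 Schwann cell markers. For 3 macrophage markers they were 0.656 to 1.15 with the MAX vector and 0.617 to 0.702 with the empty vector. For 2 endothelial markers they were 0.0762 to 0.110 with the MAX vector and 0.0265 to 0.0280 with the empty vector, with Pecam1 well above background on no array. The difference was that of the other marker, Kdr, which did not pass (1.98 ± 0.23, adjusted p = 0.0701 in limma) and had 0.63 with normexp. Without Kdr the values were 0.0032 to 0.0044 with the MAX vector and 0.0025 to 0.0074 with the empty vector.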

How the data were processed

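Total RNA was labelled with Cy3 and hybridised to 4 one-colour Agilent rat arrays. The deposited scanner files hold spot intensity from Agilent Feature Extraction 10.7.3.1 with annotation of build rn4, per the file headers (10.7 in the submitters' processing notes); its processed intensity had background removed array by array, with no scaling between arrays. The authors' deposited value table holds log2 values, each probe centred on an unknown baseline. Column differences in it matched those computed here (SD of the disagreement at most 4.27e-07), so scale and direction are known. Its column medians were -0.00536 and -0.00645 for the MAX vector arrays and -0.0332 and -0.0107 for the empty vector arrays.

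Of 43379 spots other than controls per array, those with an outlier flag (89 to 140) were left out, and 89 of 41012 probes then lacked a value on 1 array or more and were dropped. The mean log2 processed signal per probe was set relative to the 75th percentile over all probes of that array. Symbols came from RefSeq accessions matched without versions to the GRCr8 gene table, which named 26.3% of probes with 8884 distinct symbols. Probes without a symbol were grouped by their array identifier, and each identifier was counted as a gene. Genes were tested on the probe with the highest mean among those well above background on at least 2 arrays, with limma 3.58.1 in R 4.3.3, Benjamini-Hochberg adjustment over 25356 genes and a threshold of 0.05, 2 arrays per group. The fit was tested on simulated data.

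Named genes were all 10 keratins, other keratins that passed or pair with them, from each list the genes that passed and the 3 with the largest differences among those well above background on every array, and the 5 most like Krt19; flanking genes, Ivl, Vim, Foxa2, Calml3 and the markers named were picked with their values known. The members and lists were chosen with earlier results of these data known. A gene of the lists is not reported here and was left out of their counts and sums. Alternatives were normexp (offset 50, on median signals, since the files' columns hold no mean signal), quantile or median scaling, other filters, the mean of a gene's probes, the slide or replicate number as a block, the authors' value table and each array left out. Probe sequences were not used, so reading of related keratins by a probe was not tested.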

Additional observations from a re-analysis of the deposited data

How the results depend on the processing

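All alternatives kept Krt13, Krt15, Krt19, Krt33a, Krt5, Krt18 and Krt8 higher with the MAX vector. Their log2 fold changes ran from 2.31 to 3.89, 3.31 to 4.06, 2.80 to 3.39, 1.10 to 1.43, 0.66 to 1.04, 0.62 to 0.82 and 0.27 to 0.38, and the median of the 10 keratins from 0.73 to 0.87. The groups of these higher keratins did not overlap, so leaving out an array or taking the slide as a block could not reverse their direction. The other filters, the replicate block and the authors' value table reuse the same signals. Nothing is therefore read from the kept direction under those settings. Krt14 (-0.05 to 0.27), Krt1 (-0.63 to 0.15) and Krt73 (-2.63 to 0.92) lay on both sides of 0. The median of all genes moved by less than 0.1 under each setting.

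Calls in limma depended on the processing, and the cause was not tested. Over all genes 213 passed by the setting reported; 797 passed with normexp, 541 with median scaling, 515 with probes well above background on all 4 arrays, 8 with the slide as a block (3 arrays of slide 1 and 1 residual degree of freedom less), and 0 with no filter on dim probes (4033 at an unadjusted p under 0.05). With 1 array left out, 0 to 144 passed. Of the 10 keratins 6 passed with normexp, 0 with no filter (6 at an unadjusted p under 0.05) or the slide as a block (7), and 0 to 0 with 1 array left out. Of other keratins 1, Krt76, passed with normexp. Of desmosome and linker genes 1 passed with normexp, median scaling or the stricter filter. Of adhesion and junction genes 2 passed with normexp, 2 with median scaling and 1 with the stricter filter. Of cornified envelope genes 2 passed under each of these 3. Of epithelial transcription factors 2 passed with normexp, 1 higher (Tp63) and 1 lower (Klf4, -0.72, adjusted p = 0.00765 in limma). With median scaling 2 passed, both higher. With no filter or the mean of all probes 0 passed (3 at an unadjusted p under 0.05 in each). Of non-keratin filament genes 4 passed with normexp, 3 with quantile normalization, median scaling or the stricter filter, 0 with no filter (4 at an unadjusted p under 0.05) or the slide as a block (6), and 0 to 2 with 1 array left out. Cd151 ran from -0.25 to 0.16 with 1 array left out, above 0 without MAX vector replicate 2.

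Passages 8 and 13 are not tied to replicate numbers by the labels, and replicate differences of the 2 groups correlated at -0.0178 over 25356 genes, so the numbers were not taken as pairs. With the replicate block limma called 0 genes, and 3885 had an unadjusted p under 0.05. Thus 0 keratins (6 at an unadjusted p under 0.05), 0 epithelial transcription factors (3) and 0 non-keratin filament genes (4) passed.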
